A study of Mus musculus with 8 samples.

Results

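Serpina3g, Serpina3f and Serpina3n are mouse genes of the Serpina3 family of protease inhibitors. They were followed here in Ba/F3 cells, an IL3-dependent mouse pro-B cell line, that carried FLT3/ITD or wild type FLT3. The members were all probes whose gene name in the scanner files was one of these names, 4 probes of 3 genes among 41174 probes and 27404 gene names on the array. Serpina3g was picked because its excess in FLT3/ITD cells was among the largest measured, so its FLT3/ITD difference, the value that Serpina3g was chosen by, is given as a description with no test. Serpina3f and Serpina3n were named as relatives of Serpina3g and not for their own levels. The choice was made with earlier results of these data known, so it may not have been blind to those levels.

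Blood progenitors carry FLT3, a receptor tyrosine kinase, and its internal tandem duplications (ITD) keep it active without ligand. The 8 samples, 1 array each, formed 4 groups of 2: FLT3/ITD cells with 100 ng/ml Cxcl12, a chemokine, FLT3/ITD cells without it, wild type FLT3 cells with it and wild type FLT3 cells without it. All cells had been grown with IL3, washed, and kept for 4 h in medium with albumin. One slide (set 1) held the first sample of each group and a second slide (set 2) the other. The FLT3/ITD cells were N51 on set 1 and N78 on set 2, so the ITD and the slide cannot be told apart. A group also sat at 1 slide position throughout, so group and position cannot be told apart. The labels do not say whether samples of a group came from separate cultures or clones, so p-values measure the spread between these samples, which may be technical. In bulk RNA, fewer cells that express a gene and less RNA per cell cannot be told apart.

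Serpins inhibit proteases by offering a reactive loop as bait. The protease cuts the loop and is trapped in a covalent complex. Humans have a single SERPINA3, alpha-1-antichymotrypsin, a plasma protein that inhibits cathepsin G, whereas mice carry a cluster of Serpina3 genes that differ mainly in that loop. Serpina3g, also called Spi2A, lacks a classical secretion signal, acts inside cells on lysosomal cathepsins such as cathepsin B, and is a known target of NF-kB and of interferon gamma in lymphoid and myeloid cells. Serpina3n is a secreted acute-phase protein that inhibits granzyme B and leukocyte elastase. Serpina3f is a close relative of Serpina3g.

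The probes are shown because the genes are near copies of each other, and the probes decide which gene is read. Each probe has 60 bases, and the opening 30 are printed, 5′ to 3′. The bases come from the scanner files, and the positions are those of mm9 on the plus strand. Their exon and UTR placement was not annotated in the files used here.
Serpina3g, A_51_P326191, chr12:105480045-105480104: tgtctcttgttgaccaactacgtaggactg
Serpina3f, A_52_P419679, chr12:105458565-105458624: cacaaacactcatattgccctctttatggc
Serpina3f, A_52_P419678, chr12:105458964-105459023: tatacaagtttacaggccaacccataaggt
Serpina3n, A_51_P159453, chr12:105651918-105651977: ttggcatgcctggattagatagtgactaac
Over the full 60 bases, the longest run shared by any pair of these probes was 5 to 7 bases. At their best ungapped match, the Serpina3g probe and the Serpina3f probe A_52_P419679 had 21 identical bases of 55, so the 4 probes had little sequence in common. Both Serpina3f probes, from different stretches of the same transcript, also shared a run of only 6 bases. The comparison therefore cannot tell whether a probe also binds RNA of a relative. The probes were not compared with the transcripts of the other genes, and cross-hybridisation was not tested. The transcript positions in the files were 1920 for Serpina3g, 1438 and 1837 for Serpina3f, and 1463 for Serpina3n.

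The promoters are shown because Serpina3g and Serpina3f, and not Serpina3n, were measured above background in the FLT3/ITD cells. They are the RefSeq promoters of GRCm38.p6, 250 bases before to 50 after the start, on the plus strand of chromosome 12. Capitals mark matches to GAS, the site read by STAT factors (TTCNNNGAA), and to the NF-kB motif (GGGRNWYYCC). Here N is any base, R is A or G, W is A or T, and Y is C or T. Both motifs were searched on both strands, and no matches overlapped.
Serpina3g, chr12:104235897-104236196: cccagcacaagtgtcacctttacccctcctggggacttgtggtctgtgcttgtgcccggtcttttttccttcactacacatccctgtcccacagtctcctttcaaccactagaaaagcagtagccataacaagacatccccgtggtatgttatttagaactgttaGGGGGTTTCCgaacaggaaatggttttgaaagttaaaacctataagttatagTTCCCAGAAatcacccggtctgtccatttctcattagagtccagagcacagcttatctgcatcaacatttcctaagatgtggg
Serpina3f, chr12:104214294-104214593: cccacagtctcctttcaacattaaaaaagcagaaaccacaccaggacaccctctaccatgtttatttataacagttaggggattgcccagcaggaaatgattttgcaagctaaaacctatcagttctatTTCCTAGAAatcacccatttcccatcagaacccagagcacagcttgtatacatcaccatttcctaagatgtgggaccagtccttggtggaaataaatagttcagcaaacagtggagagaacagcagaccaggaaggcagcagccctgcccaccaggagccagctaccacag
Serpina3n, chr12:104406458-104406757: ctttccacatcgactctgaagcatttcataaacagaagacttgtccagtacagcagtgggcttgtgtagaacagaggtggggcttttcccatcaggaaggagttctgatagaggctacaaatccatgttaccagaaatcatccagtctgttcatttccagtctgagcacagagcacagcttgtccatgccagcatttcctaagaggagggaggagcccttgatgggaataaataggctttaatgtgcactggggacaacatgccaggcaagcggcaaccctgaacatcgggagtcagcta
The Serpina3g promoter held a GAS match, TTCCCAGAA, that began 33 bases before the start, and an NF-kB match, GGGGGTTTCC, that began 85 bases before it. The Serpina3f promoter held a GAS match, TTCCTAGAA, 121 bases before the start and no NF-kB match. A further Serpina3f start, downstream, has a promoter that overlaps this window and holds the same GAS match. The Serpina3n promoter held neither motif. At the place aligned with the Serpina3g GAS match it reads TTACCAGAA, with 8 of 9 letters identical. At the place aligned with the Serpina3g NF-kB match, Serpina3n reads GGGCTTTTCC and Serpina3f GGGGATTGCC, each with 8 of 10 letters identical.

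The promoters of Serpina3g and Serpina3f were 83.7% identical over 202 aligned bases, and those of Serpina3g and Serpina3n 71.7% over 205. Of all 32851 RefSeq promoters of this length, 8.3% held a GAS match and 4.51% an NF-kB match. Serpina3i, a family member whose promoter also held GAS and NF-kB matches, had a probe that was well above background on no array. A match is a stretch of letters and not a measured binding site.

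Depth on an array is set by signal over background. The 75th percentile of processed intensity, which served to scale each array, was 945 to 1124 on set 1 and 367 to 601 on set 2. The scanner software called 49.0 to 55.0% of probes well above background, and the lowest signal so called was 14.3 to 32.0 per array. Of the labelled pro-B cell's 14 markers, 7 were kept in the fit, and Igll1, Pax5, Ebf1, Il7r, Rag1, Rag2 and Cd93 were well above background on no array. Below, levels are log2 of the processed intensity minus log2 of the array's 75th percentile, and differences are FLT3/ITD minus wild type FLT3 from limma across 13817 genes, with the slide as a block. The threshold was a Benjamini-Hochberg adjusted p of 0.05.

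Serpina3g, the intracellular cathepsin inhibitor, was bright in all 4 FLT3/ITD samples and at or near background in all 4 wild type FLT3 samples. With Cxcl12 its processed intensity was 4329 in N51 cells and 2396 in N78 cells, against 5.73 and 8.01 in the wild type FLT3 cells on the same slides. Without Cxcl12 it was 2315 in N51 cells and 2087 in N78 cells, against 3.81 and 19.4 in wild type FLT3 cells. Of the 4 wild type FLT3 samples 1 was well above background, the sample without Cxcl12 on set 2.

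The Serpina3g level averaged 1.75 ± 0.43 in FLT3/ITD cells and -6.42 ± 1.70 in wild type FLT3 cells (log2 relative to the 75th percentile, SD, n = 4 each). The wild type FLT3 mean is mostly a background value, so the difference is best read as a bound, set against the lowest signal well above background. On that scale Serpina3g was at least 104-fold higher in FLT3/ITD cells over both treatments. It was at least 118-fold higher with Cxcl12 and, with the measured wild type FLT3 sample included, at least 91.4-fold higher without it. The fitted difference over both treatments was 8.17 log2 units (SE 0.49), the largest of all 13817 genes as fitted, with 8.72 with Cxcl12 and 7.62 without it. These values use wild type FLT3 arrays at background, so the bounds are the safer reading. The bounds hold for the processed intensity alone. Under another background correction (normexp with an offset of 50, without spots of flagged local background) the fitted Serpina3g difference was 5.11 log2 units. That is smaller than the 6.70 log2 units of the 104-fold bound. The offset is added to every corrected value and lowers the differences of dim probes, so the scales of these values are unlike. By slide, the fitted difference was 9.29 for N51 and 7.06 for N78. The wild type FLT3 sample with an intensity of 19.4 lies on the slide of N78.

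**Figure D1:**
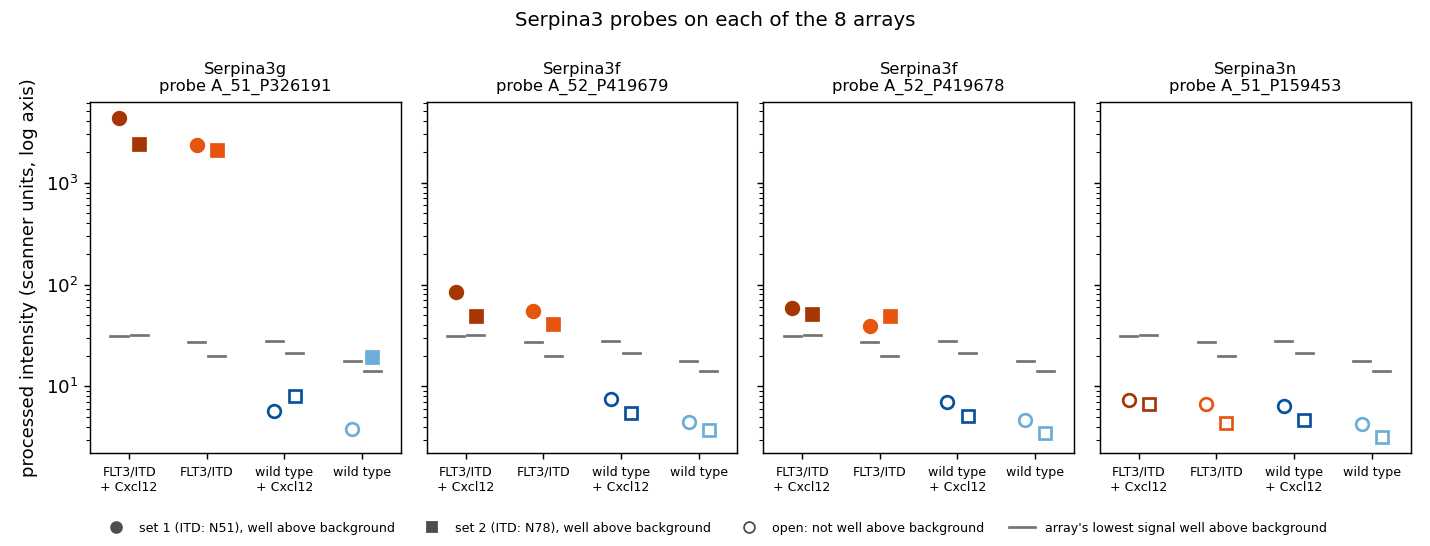
Processed intensity (scanner units, log axis) of each Serpina3 probe on each array, FLT3/ITD groups left of wild type FLT3 groups. Circles are set 1, squares set 2, open symbols lie not well above background, and grey bars mark each array's lowest signal well above background. Serpina3g lies between 2087 and 4329 in FLT3/ITD cells, both Serpina3f probes lie above the bars in FLT3/ITD cells alone, and Serpina3n lies under the bars on all 8 arrays.

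Serpina3f was dim, and it was measured in FLT3/ITD cells and not in wild type FLT3 cells. With Cxcl12 the probe that stands for the gene, A_52_P419679, had an intensity of 84.6 in N51 cells and 49.3 in N78 cells, against 7.46 and 5.47 in wild type FLT3 cells. Without Cxcl12 it had 55.2 in N51 cells and 40.9 in N78 cells, against 4.49 and 3.70 in wild type FLT3 cells. It was well above background on 4 of 4 FLT3/ITD arrays and on 0 of 4 wild type FLT3 arrays. The share of all genes with such a split was not counted.

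The probe A_52_P419678, which reads another stretch of the same transcript, showed the same split. With Cxcl12 its intensities were 58.9 in N51 cells and 51.7 in N78 cells, against 7.07 and 5.09 in wild type FLT3 cells. Without Cxcl12 they were 39.3 in N51 cells and 49.5 in N78 cells, against 4.63 and 3.50 in wild type FLT3 cells. The brightness before the software's own corrections, as spot minus local background, was higher in FLT3/ITD cells as well. For A_52_P419679 it was 44.2 to 94.0 in FLT3/ITD cells and -4.94 to 30.9 in wild type FLT3 cells.

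Serpina3f rose in FLT3/ITD cells, by a fitted 3.17 log2 units over both treatments (SE 0.32, limma adjusted p = 0.00156, higher on both slides, 3.44 for N51 and 2.89 for N78). Both probes entered the fit through the FLT3/ITD arrays alone, so its place among the genes that passed is no support: 3.48% of the 13817 genes were higher and 6.04% passed in either direction. With no filter on dim probes, which does not favour such genes, the difference was the same and the limma adjusted p was 0.0111, and 0.708% of 27276 genes passed. As a bound on the processed intensity, Serpina3f was at least 2.34-fold higher in FLT3/ITD cells. In the separate treatments the call held only with the filter. With Cxcl12 the difference was 3.17 (SE 0.46, limma adjusted p = 0.0183, where 0.832% of genes passed, and 0.0803 with no filter). Without Cxcl12 it was 3.17 (SE 0.46, limma adjusted p = 0.0259, where 0.499% passed, and 0.129 with no filter). The other Serpina3f probe had a fitted difference of 3.06 (SE 0.33) and was at least 2.08-fold higher. These fitted differences, their SEs and their p-values, with and without the filter, rest on wild type FLT3 values at background. They do not measure the spread of Serpina3f expression in wild type FLT3 cells. Serpina3f was also named with earlier results of these data known, which limits its p-values as a test.

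The Serpina3f call needed the slide as a block: without it the limma adjusted p was 0.21, and no gene passed in that fit. It was lost under normexp background correction over all spots, where the difference was -0.10. In that correction the wild type FLT3 array with Cxcl12 of set 2 had a median of 1431, against 93.0 to 114 on the others. On that array A_52_P419679 had a spot minus local background of 5.70 and a corrected value of 1415. With spots of flagged local background left out, an alternative chosen after seeing the data, the call held (0.63, limma adjusted p = 0.0239). In that fit Serpina3f passed neither with Cxcl12 (0.86, limma adjusted p = 0.0684) nor without it (0.40, limma adjusted p = 0.343). The 0.63 is smaller than the 1.23 log2 units of the 2.34-fold bound, which holds for the processed intensity alone. The normexp offset of 50 lowers the differences of dim probes, so the scales of these values are unlike.

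Serpina3n, the secreted granzyme B inhibitor, was not well above background on any of the 8 arrays. Its intensity was 4.41 to 7.39 in FLT3/ITD cells and 3.19 to 6.37 in wild type FLT3 cells, and these ranges overlap. It was left out of the fit by the filter on dim probes. With no filter the FLT3/ITD difference was 0.19 (SE 0.18, limma adjusted p = 0.585), which is a difference of background values. Whether Serpina3n differed between the groups was not detectable at this signal.

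Cxcl12 made no difference that passed for Serpina3g or Serpina3f. In FLT3/ITD cells the Serpina3g level was 1.97 ± 0.03 with Cxcl12 and 1.53 ± 0.60 without it (log2 relative to the 75th percentile, SD, n = 2 each). The fitted difference was 0.44 (SE 0.70, 95% interval -1.14 to 2.03, limma adjusted p = 0.888), with 0.84 in N51 cells and 0.04 in N78 cells. The interval spans lower and higher levels, so the data set the size of a Cxcl12 difference only within these bounds.

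For Serpina3f the level in FLT3/ITD cells was -3.67 ± 0.09 with Cxcl12 and -4.00 ± 0.40 without it (SD, n = 2 each). The fitted difference was 0.33 (SE 0.46, 95% interval -0.70 to 1.37, limma adjusted p = 0.862). Across all genes 0% passed in this comparison by limma, though 1443 had an unadjusted p under 0.05. In wild type FLT3 cells, where 0.0651% of genes passed, both genes were at or near background with and without Cxcl12, so no fold is given. For the same reason no average over both kinds of cell is given for them, a comparison in which 0.384% of all genes passed.

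The interaction, the Cxcl12 difference in FLT3/ITD cells minus that in wild type FLT3 cells, was 1.097 for Serpina3g (SE 0.99, limma adjusted p = 0.999) and -0.004 for Serpina3f (SE 0.65, limma adjusted p = 0.999). It rests on the background values of wild type FLT3 cells. By limma 0% of genes passed, and 233 had an unadjusted p under 0.05.

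The genes beside the members gave a local comparison. Within 1000 kb of the Serpina3g probe in mm9 lay 58 probes of 47 genes, of which 24 probes were kept in the fit. The 2 Serpina3f probes, described above, lay 21.1 and 21.5 kb from it. The other 21 kept probes had FLT3/ITD differences from -1.15 to 0.51, with limma adjusted p of 0.0877 or more. They included the interferon-induced genes Ifi27 (0.23) and Ifi27l2a (0.01 and 0.09), and the RNA-processing enzyme Dicer1 (-0.06 and -0.60), none of which passed. These 3 genes were picked as examples after their values were seen.

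Most other serpins there were not measured above background. Of 25 probes of Serpina genes in the window, 18 were well above background on no array. These included Serpina3i, the nearest on the other side at 24.1 kb, and Serpina3c at 94.7 kb. Serpina3m, 152 kb away and measured on all 8 arrays, had a difference of -0.33 (SE 0.26, limma adjusted p = 0.445 over genes) and did not pass.

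**Figure D2:**
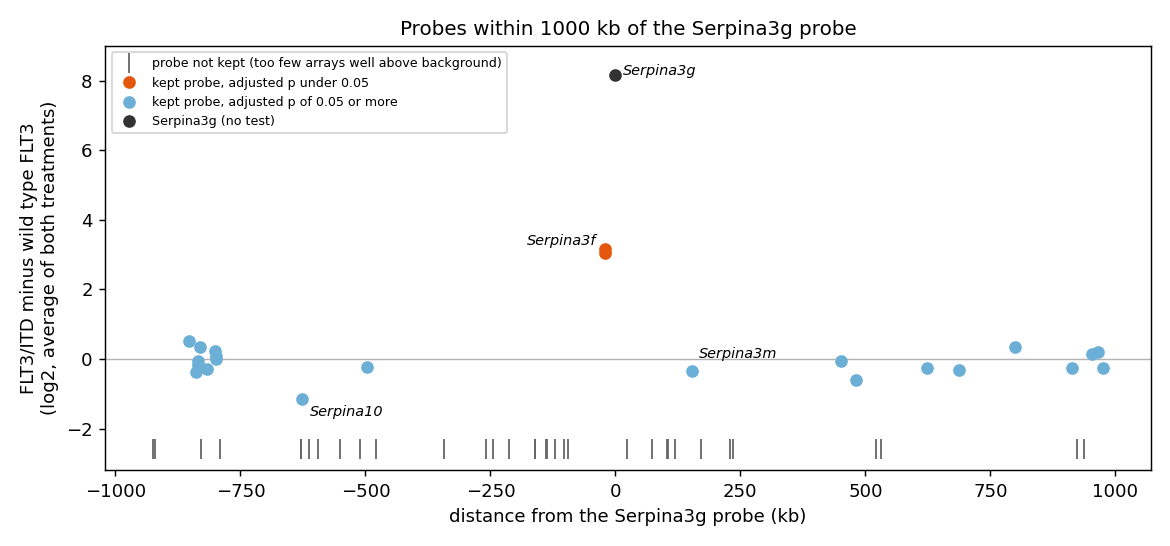
FLT3/ITD minus wild type FLT3 difference (log2, average of both treatments) of each probe against its distance from the Serpina3g probe (kb). Points are kept probes and the ticks at the bottom are probes not kept. Serpina3g at 8.17 and the 2 Serpina3f probes at 3.06 and 3.17 stand above the other 21 kept probes, which lie between -1.15 and 0.51.

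Other serpins were read from 2 lists. Of 22 listed clade A serpins that are no member, 18 were on the array, 14 of these were well above background on no array, and 2 were kept. Neither passed: Serpina3m as above, and Serpina10, which inhibits coagulation factors, at -1.15 (SE 0.43). Serpins of other clades had 13 kept genes of 37 on the array, and 1 rose and 3 fell in FLT3/ITD cells (30.8% of those kept, beside 6.04% of all genes). Their median difference was -0.63, beside -0.01 over all genes.

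The riser was Serpinb6b, an intracellular granzyme A inhibitor, at 2.68 (SE 0.26, limma adjusted p = 0.0012). The genes that fell were Serpinb1a (-1.20), Serpinb1b (-1.28) and Serpinb1c (-1.33). Serpinb1a is an intracellular inhibitor of elastase, proteinase 3 and cathepsin G.

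Of 37 listed cathepsins, granzymes and granule serine proteases, 19 were kept, and 1 rose and 5 fell in FLT3/ITD cells (31.6% of those kept, beside 6.04% of all genes), with a median difference of -0.07, beside -0.01 over all genes. Cathepsin G (Ctsg), the target of human SERPINA3, fell by 4.83 (SE 0.48, limma adjusted p = 0.0014). The mast cell and basophil proteases Mcpt8 (-4.41), Mcpt4 (-3.31), Cma1 (-2.90) and Cma2 (-2.86) fell too. Ctsc, the peptidase that activates granule proteases, rose by 1.096 (SE 0.21, limma adjusted p = 0.0236).

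Cathepsin B (Ctsb), a known target of Serpina3g, was at -0.07 (SE 0.15, limma adjusted p = 0.80). Granzyme B (Gzmb) went opposite ways on the slides, 1.91 for N51 and -2.98 for N78, and did not pass (-0.54, SE 0.83). Several of the proteases that fell mark mast cells and basophils. Of 7 kept mast cell and basophil markers, which include Mcpt8 and Cma1, 2 fell and none rose, and their summed level was 4499 to 13366% of the 75th percentile in FLT3/ITD cells and 20397 to 35508% in wild type FLT3 cells. Their part in the Serpina3 values was not tested.

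**Figure D3:**
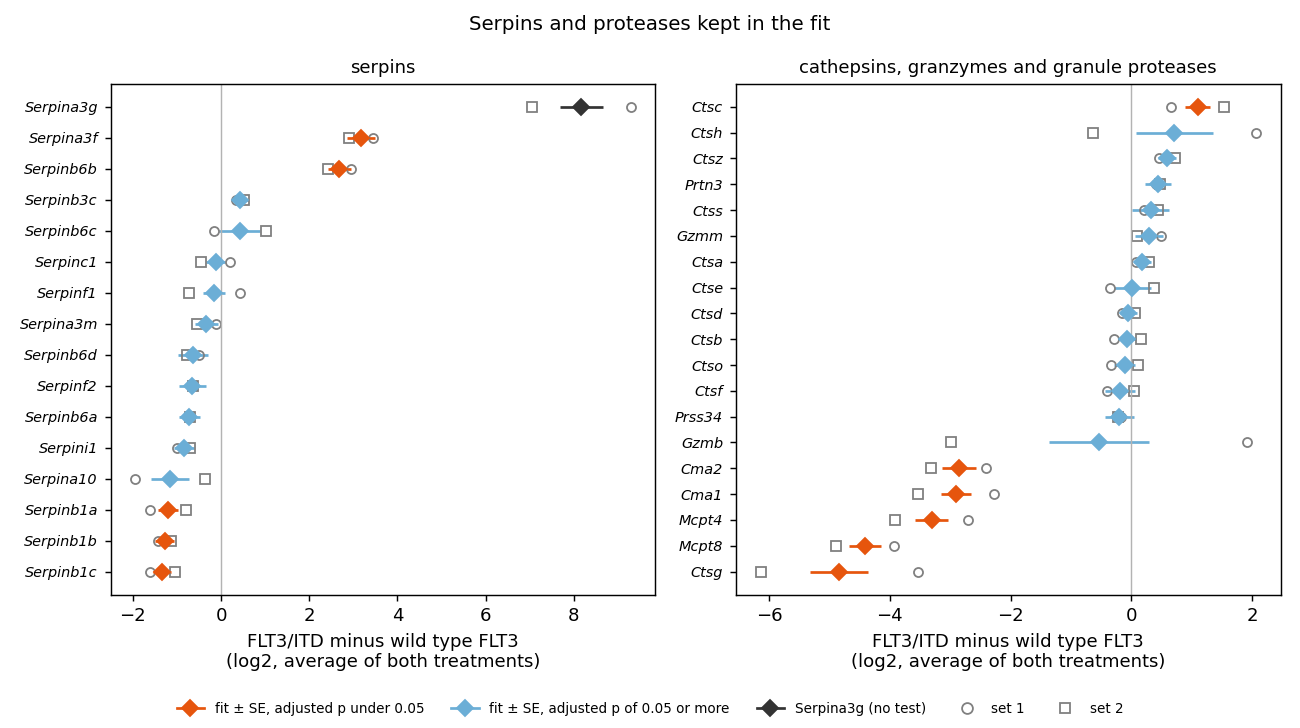
FLT3/ITD minus wild type FLT3 difference (log2, average of both treatments) of serpins (left) and proteases (right) kept in the fit, with diamonds for the fit ± SE, circles for set 1 and squares for set 2. Serpina3g (8.17), Serpina3f (3.17) and Serpinb6b (2.68) lie to the right, and Ctsg (-4.83) and Mcpt8 (-4.41) to the left.

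Hepatocytes are a main source of secreted clade A serpins, and their markers were checked for that reason. Alb, Apoa1, Apoa2, Ttr, Hp and Fgb were well above background on no array. The remaining marker of the 7, Trf, the iron carrier transferrin, rose by 1.16 (SE 0.17, limma adjusted p = 0.00774), with a level of 115 to 217% of the 75th percentile in FLT3/ITD cells and 60.4 to 88.4% in wild type FLT3 cells. Of 5 kept monocyte and macrophage markers, 1 rose, the lysozyme gene Lyz2 at 2.56, and Mpeg1 (-2.19), Adgre1 (-0.68), Cd14 (-0.35) and Cd68 (-0.08) did not pass. Their signal had a summed level of 795 to 4543% in FLT3/ITD cells and 1825 to 4822% in wild type FLT3 cells. Of 3 kept T and NK cell markers none passed, with summed levels of 34.1 to 52.8% in FLT3/ITD cells and 25.6 to 53.6% in wild type FLT3 cells. Of the 7 kept pro-B markers, 1 fell, Ptprc at -0.56. Of these markers 4 had a positive difference that did not pass, Vpreb3 (0.48), Cd79b (0.25), Cd79a (0.20) and Vpreb1 (0.12), and the median was 0.12, with summed levels of 1744 to 2713% in FLT3/ITD cells and 2020 to 4005% in wild type FLT3 cells. The part of these markers' cells in the Serpina3 values was not tested.

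Pathway mRNAs were read from a list that holds genes of NF-kB and interferon gamma, known to act on Serpina3g, and of other pathways. Of 35 listed STAT, NF-kB, interferon and interleukin-6 pathway genes 30 were kept, and 2 rose and 2 fell in FLT3/ITD cells (13.3% of those kept, beside 6.04% of all genes), with a median difference of -0.14, beside -0.01 over all genes. Relb, a subunit of the alternative NF-kB pathway, rose by 1.81 (SE 0.17, limma adjusted p = 0.000919), and Nfkb1, the precursor of the p50 subunit, rose by 0.74 (SE 0.16, limma adjusted p = 0.0324). Ifngr1, a chain of the interferon gamma receptor, fell by 0.94, and Csf2rb2, an IL3 receptor chain, fell by 0.60. Stat5a (-0.09) and Rela (-0.14) did not pass.

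The genes most like Serpina3g were found by Pearson correlation over the 8 arrays, each value taken minus the mean of its slide. The points share the 4 FLT3/ITD against 4 wild type FLT3 split, and 94 of 13816 genes had an r of 0.95 or more, so the values are a description. The leading genes were Slamf1, a receptor of immune cells (r = 0.996), Lilrb4a, an inhibitory receptor (0.994), Them6 (0.993), Fam71b (0.992), Ergic1, a protein of the early secretory pathway (0.990), and Pim1, a survival kinase (0.988). Serpina3f ranked 6 among all genes, at 0.988. The likeness is in shape and not in size: the FLT3/ITD difference was 5.27 for Slamf1 and 0.27 for Ergic1. Slamf1, Fam71b and Serpina3f were well above background on 0 wild type FLT3 arrays and Serpina3g on 1. Their differences and r values thus rest partly on background values.

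For Serpina3f the most alike genes were the thrombin receptor F2r (r = 0.995), the ATP-gated channel P2rx1 (0.994), Lilrb4a (0.994), Mrvi1 (0.992), the adaptor Sla2 (0.991) and BC034090 (0.990). Serpina3g ranked 11 in that order. Lilrb4a was on both lists, with a FLT3/ITD difference of 3.29 and a signal well above background on all 8 arrays.

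**Figure D4:**
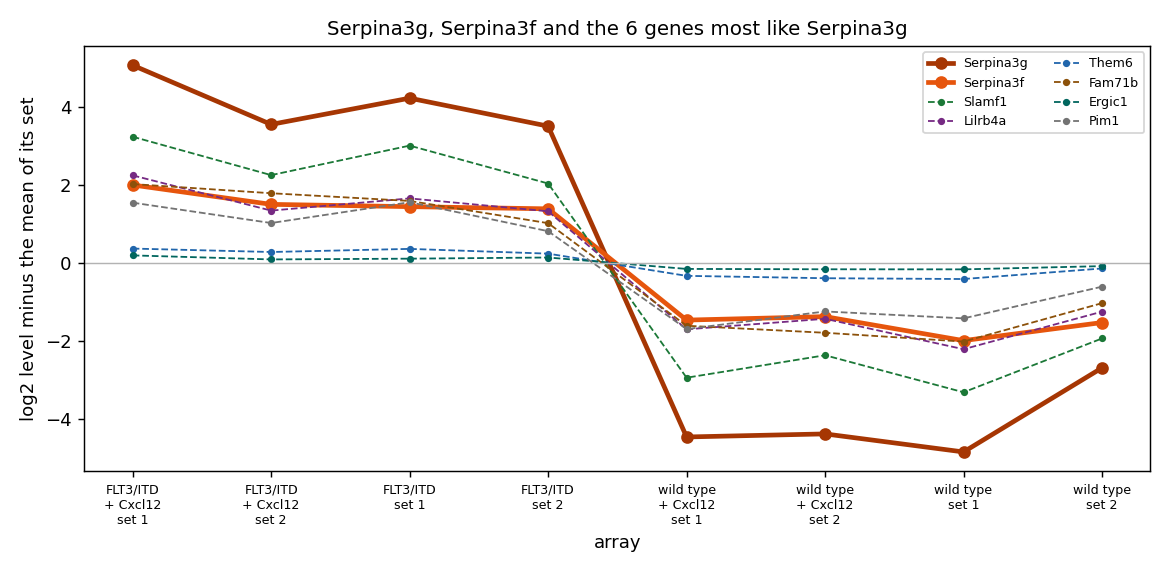
Level (log2) minus the mean of its slide on each of the 8 arrays, FLT3/ITD arrays left of wild type FLT3 arrays, for Serpina3g, Serpina3f and the 6 genes most like Serpina3g. All 8 lines are above 0 on the 4 FLT3/ITD arrays and below 0 on the 4 wild type FLT3 arrays, and Serpina3g spans the most, from 5.07 to -4.84.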

How the data were processed

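Total RNA was labelled with Cy3 and hybridised to Agilent 4x44K mouse arrays, 1 dye and 1 array per sample. Per the file headers, Agilent Feature Extraction (9.5.1.1 with set 1, 10.7.3.1 with set 2) made the deposited processed intensity, with background subtraction and correction within arrays but no scaling between them. The authors' deposited normalized tables served as an alternative.

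Here log2 of the processed intensity minus each array's 75th percentile was used. Control spots and outlier spots were left out, and repeat spots of 1 probe were averaged. Probes entered the fit when both arrays of some group called them well above background (21049 of 41174). The kept probe with the highest mean stood for its gene, which gave 13817 genes. All 8 arrays were fitted in limma 3.58.1 (R 4.3.3), with 4 group means, the slide as a block and eBayes with an intensity trend, leaving 3 residual degrees of freedom. The slide was read from the file headers. Arrays of a slide shared their deviations from the group means (r of 0.73 to 0.878), which is why the slide was kept as a block. Bounds of the "at least" kind compare group means of normalized log2 values, with each dim array set to the higher of its lowest signal well above background and the probe's own value.

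The members and the gene lists were chosen with earlier results of these data known. Named genes were the members, the 6 genes most like a kept member, and up to 6 called genes per list, otherwise up to 3 examples. Probe names came from the files, updated through the RefSeq table by accession (27198 probes), symbol (5590) or synonym (721), and 7665 kept the file's name. Promoters were aligned with Biopython 1.88. When the fit was tested on simulated data for 13817 genes, 100 of them changed at each fold, the average FLT3/ITD comparison recovered 77% of 2-fold and 99% of 4-fold changes with 11 false calls, Cxcl12 in FLT3/ITD cells 34% and 94% with 12, and the interaction 11% and 74% with 7. These rates are taken over all changed genes and do not give the rate for a member. Serpina3g had an SE of 0.70 for Cxcl12 in FLT3/ITD cells and 0.99 for the interaction. The number of arrays limits the precision. The alternatives were quantile normalization, normexp, the authors' tables, no filter, all kept probes, no block, no trend and leaving out each array. Protein sequences were not used here. A few listed genes enter the counts but are not reported here.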

Additional observations from a re-analysis of the deposited data

How the results depend on the processing

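Without the slide as a replicate block, Serpina3f no longer passed (3.17, limma adjusted p = 0.21) and 0 genes were called for the average FLT3/ITD difference, against 834 with it. With no filter on dim probes Serpina3f passed for the average but not with Cxcl12 or without it (limma adjusted p of 0.0111, 0.0803 and 0.129 in that order). Leaving out each array in turn gave FLT3/ITD differences of 7.46 to 8.89 for Serpina3g and 3.004 to 3.33 for Serpina3f (limma adjusted p of 0.00272 to 0.0165). It gave Cxcl12 differences in FLT3/ITD cells of -0.57 to 1.45 and 0.004 to 0.67, and interactions of -0.34 to 2.53 and -0.33 to 0.33, for Serpina3g and Serpina3f in that order. The Serpina3g Cxcl12 difference turned negative without the FLT3/ITD array of set 2 and without the FLT3/ITD array with Cxcl12 of set 1. Counts ran from 155 (without the wild type FLT3 array with Cxcl12 of set 2) to 914 for the average FLT3/ITD difference, from 0 to 49 for Cxcl12 in FLT3/ITD cells and from 0 to 18 for the interaction.

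Normexp over all spots, with an offset of 50, gave 4.42 for Serpina3g, -0.10 for Serpina3f and an interaction of -0.50 for Serpina3g. It called 352, 29 and 6 genes in the same 3 comparisons. On the wild type FLT3 array with Cxcl12 of set 2, 5 spots had a local background above 10000, up to 142297, against at most 101.5 on the other 7 arrays, and the median corrected value there was 1431 against 93.0 to 114. These further alternatives were chosen after seeing the data. An offset of 0 gave 5.66, 0.66 (adjusted p = 0.80), an interaction of -1.01, and 306, 24 and 5 genes. The maximum likelihood fit gave 4.43, -0.10, -0.49, and 352, 30 and 6. Leaving out spots with flagged background brought the median on that array to 100.3 and gave 5.11 for Serpina3g, 0.63 for Serpina3f and 0.46 for the Serpina3f interaction, which was 0.14 with quantile normalization.

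The average FLT3/ITD count was 1293 in the authors' tables (3 for Cxcl12 in FLT3/ITD cells), 193 with no filter, 1271 over all kept probes and 445 without a trend (1 for Cxcl12 in FLT3/ITD cells). Which spots or settings cause these changes was not tested further. Serpina3f in FLT3/ITD cells was at most 2.69 times the lowest signal well above background on its array, so signal over background limits its fold.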
